A study of Mus musculus with 5 samples.

Results

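The dystrophin-glycoprotein complex was examined through 8 of its genes in the gastrocnemius, a calf muscle, of mice that had received extracellular vesicles. The 8 genes were Dmd, Utrn, Sgca, Sgcb, Sgcd, Dag1, Dtna and Sspn. They were taken by name from the mouse annotation, all 8 had a row among the 35275 genes of the table, and all 8 averaged 1 FPKM or more, as did 10710 genes in all. FPKM is the number of reads of a gene divided by its length and by the reads of the library, so that levels of different genes can be set side by side per length.

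The samples were 5 in number and formed 1 group, labelled MCF-10A/miR122 EV. Each came from gastrocnemius of female NSG mice, an immunodeficient mouse strain whose genotype is labelled Wild Type, at 12 weeks of age. The vesicles were made by cells labelled MCF-10A/miR122, where MCF-10A is an untransformed human breast epithelial line and miR-122 a liver microRNA. They were given into the tail vein 10 times in all, 2 times a week over 5 weeks at about 10 µg each, and the muscle was collected 2 days after the last dose. There was no untreated group among these samples, so levels, their order and their spread are described and no effect of the vesicles is. The labels number the samples 1 to 5 without saying that each is a separate animal, and the spread given is that between these samples.

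The complex spans the membrane of the muscle fibre. Dystrophin, encoded by Dmd, binds actin inside the cell and dystroglycan at the membrane, and dystroglycan binds laminin in the matrix outside. The sarcoglycans and sarcospan form a membrane subcomplex beside dystroglycan, and dystrobrevin and the syntrophins bind dystrophin from the cytoplasm. The complex is known for bracing the membrane during contraction, and loss of dystrophin or of a sarcoglycan causes muscular dystrophy.

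Library totals recovered from the steps of the deposited values ran from 16674504 to 25407988 reads. Reads of mitochondrial genes made up 7.65% to 9.89% of a library.

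The genes lie on 7 chromosomes and differ widely in size. In GENCODE M21 on mm10, Dmd occupies chromosome X from 82948870 to 85206141 on the plus strand, a span of 2257 kb whose longest coding transcript has 79 exons. Utrn occupies chromosome 10 from 12382188 to 12869365 (minus strand, 74 exons). Sgca lies at 94962791 to 94976327 and Sgcd at 46896253 to 47988969 of chromosome 11, both on the minus strand. Sgcb lies at 73632749 to 73647790 of chromosome 5 (minus strand), Dag1 at 108204634 to 108263958 of chromosome 9 (minus strand) and Sspn at 145931641 to 145965223 of chromosome 6 (plus strand). Of the exon bases, 0.532% in Dtna and 1.38% in Sspn also belonged to an antisense gene, and none did in the other 6 genes.

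Promoter sequence is shown for Sgca and Sgcd, the sarcoglycan genes of this set with the highest and the lowest level, and for both starts of Dmd in the RefSeq table, since the value of Dmd sums the reads of all its isoforms. Each sequence is the 250 bases before an annotated transcript start in RefSeq (GRCm38.p6), on the strand of the gene, with matches to the E-box CANNTG in capitals. The E-box is the core motif bound by myogenic factors such as MyoD, and it reads the same on both strands.
Sgca, chr11:94976328-94976577, minus strand: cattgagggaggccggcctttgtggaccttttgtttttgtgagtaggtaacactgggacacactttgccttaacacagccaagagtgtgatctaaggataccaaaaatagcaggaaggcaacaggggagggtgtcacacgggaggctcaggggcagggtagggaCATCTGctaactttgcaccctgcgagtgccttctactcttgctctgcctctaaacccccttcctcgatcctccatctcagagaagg
Sgcd, chr11:47379326-47379575, minus strand: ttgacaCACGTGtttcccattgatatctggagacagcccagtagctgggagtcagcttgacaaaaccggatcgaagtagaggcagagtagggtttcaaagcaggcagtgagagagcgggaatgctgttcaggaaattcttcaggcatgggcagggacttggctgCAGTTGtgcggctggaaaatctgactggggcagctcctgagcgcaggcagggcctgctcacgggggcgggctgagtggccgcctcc
Dmd, first start, chrX:82948620-82948869, plus strand: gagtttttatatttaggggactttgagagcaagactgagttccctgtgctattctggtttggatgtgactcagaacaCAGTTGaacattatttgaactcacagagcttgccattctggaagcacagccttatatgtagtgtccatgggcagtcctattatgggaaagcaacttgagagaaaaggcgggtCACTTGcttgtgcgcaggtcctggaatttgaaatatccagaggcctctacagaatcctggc
Dmd, start near the end of the gene, chrX:85048045-85048294, plus strand: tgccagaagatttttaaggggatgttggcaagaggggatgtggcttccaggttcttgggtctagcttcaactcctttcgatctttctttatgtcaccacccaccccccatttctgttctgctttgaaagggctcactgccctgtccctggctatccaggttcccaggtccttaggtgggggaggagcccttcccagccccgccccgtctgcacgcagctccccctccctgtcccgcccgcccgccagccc
The Sgcd start lies within the span given above, which reaches further upstream. The Sgca window held 1 E-box, the Sgcd window 2, the first Dmd window 2 and the later Dmd window 0. At least 1 was present in 66.2% of 32851 such windows over all genes, so its presence sets none of these apart. The GC box GGGCGG, searched on both strands, occurred 3 times in the later Dmd window, 1 time in that of Sgcd and not in the other windows, and 32.7% of all windows held it. A match is a run of letters and says nothing of binding.

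Sgca, which encodes alpha-sarcoglycan, was the most abundant of the 8 transcripts. It measured 114, 128, 128, 132 and 98.1 FPKM in libraries 1 to 5, a mean of 120.0 ± 14.1 FPKM (SD, n = 5), which ranked 416 among all genes. Library 5 was the lowest, and without it the coefficient of variation (CV, the SD as a percentage of the mean) fell to 6.31%, against 11.7% over all 5 libraries. Sgcb, which encodes beta-sarcoglycan, measured 42.8, 36.6, 39.1, 38.3 and 41.2 FPKM. With a mean of 39.6 ± 2.43 FPKM and a CV of 6.15%, it had the lowest CV of the 8 genes on the deposited scale. With median-of-ratios size factors its CV was 10.5%, above those of Dag1 (7.80%) and Dtna (8.68%). Sgcd, which encodes delta-sarcoglycan, measured only 1.07, 1.26, 1.97, 1.15 and 1.06 FPKM, from 104 to 146 reads a library. Its mean was 1.30 ± 0.381 FPKM, at percentile 6.77 of the genes averaging 1 FPKM or more, and library 3 lay above the others. Without library 3 its CV fell to 8.19%, against 29.3% with it, which is below the 9.18% that counting error alone gives over all 5 libraries.

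Dag1, which encodes the precursor of alpha- and beta-dystroglycan, was second in level. It measured 60.9, 60.6, 62.3, 46.8 and 60.6 FPKM, a mean of 58.2 ± 6.44 FPKM (SD, n = 5). Libraries 1, 2, 3 and 5 lay within a CV of 1.31%, and library 4 lay below them, against a CV of 11.1% over all 5. This rests on the deposited scaling: with median-of-ratios size factors Dag1 measured 58.5, 56.8, 58.4, 52.2 and 64.9, a CV of 7.80%, with library 4 still lowest and library 5 highest. Sspn, which encodes sarcospan, a small membrane protein of the sarcoglycan complex, measured 15.0, 16.7, 16.9, 10.8 and 14.1 FPKM, a mean of 14.7 ± 2.48. It too was lowest in library 4, and its CV was 8.55% without that library against 16.9% with it.

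The dystrophin side of the complex was measured at lower levels than Sgca, Dag1, Sgcb and Sspn. Dmd measured 5.80, 6.89, 5.25, 3.86 and 5.82 FPKM, a mean of 5.52 ± 1.11 (SD, n = 5) from 1305 to 2205 reads a library. It was highest in library 2 and lowest in library 4, without which its CV was 11.6% in place of 20.0%. Utrn encodes utrophin, the paralogue of dystrophin that in adult muscle is known at the neuromuscular and myotendinous junctions. It measured 2.12, 2.45, 2.35, 1.32 and 2.07 FPKM, a mean of 2.06 ± 0.444, with a CV of 21.5% that fell to 8.12% without library 4. Dtna, which encodes alpha-dystrobrevin, a dystrophin-related protein of the cytoplasmic side, measured 13.0, 11.6, 13.6, 10.6 and 12.8 FPKM, a mean of 12.3 ± 1.21. The gene lies on the plus strand of chromosome 18 (mm10), from 23415135 to 23659715. Its libraries lay close together, with library 4 the lowest. In muscle as a whole, fewer cells of a type and less RNA per cell cannot be told apart in any of these values.

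**Figure D1:**
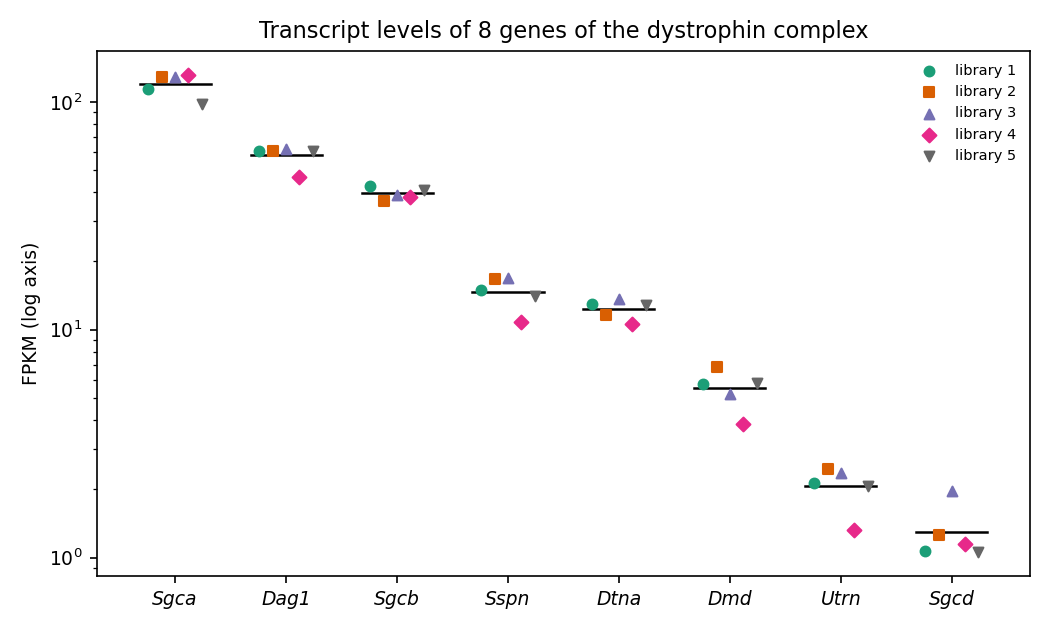
FPKM (log axis) of the 8 genes in each of the 5 libraries, 1 symbol per library, with the mean as a bar. Levels run from a mean of 120.0 FPKM for Sgca to 1.30 for Sgcd, and library 4 lies lowest for Dag1, Sspn, Dtna, Dmd and Utrn.

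The order by mean level was Sgca, Dag1, Sgcb, Sspn, Dtna, Dmd, Utrn and Sgcd, and each gene exceeded the next in all 5 libraries. The steps between neighbours were 2.06-fold from Sgca over Dag1, 1.47-fold from Dag1 over Sgcb, 2.69-fold from Sgcb over Sspn, 2.23-fold from Dtna over Dmd and 2.68-fold from Dmd over Utrn, without overlap of the ranges over libraries. For Sspn over Dtna (1.19-fold) and Utrn over Sgcd (1.58-fold) the ranges overlapped. The order of the means was the same when the total exon length in GENCODE M21 was used in place of the length behind the deposited values. The levels were then 40.4 FPKM for Dag1, 36.3 for Sgcb, 4.60 for Dtna, 3.46 for Dmd and 0.702 for Sgcd. Dag1 and Sgcb thus lay closer together than with the deposited length, and this ordering was of means only, not of each library. The change of Dtna, 2.68-fold, was the largest of the 8 as a fold. Shorter lengths were not tried. The transcript with the longest coding sequence has 1617 bases for Sgcd, against 4453 behind its FPKM, and 3860 for Dtna, against 6321. A shorter length raises a level, so the places of Sgcd and Dtna in this order depend on the length used.

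Ratios of FPKM within a library remove a factor that all its genes share. With 1 added to each FPKM as a pseudocount, the removal is incomplete for genes near 1 FPKM. On the log2(FPKM + 1) scale, Utrn lay below Dmd by a log2 ratio of -1.09 ± 0.11 (SD, n = 5), and its FPKM was 0.342 to 0.448 of that of Dmd. Both genes were lowest in library 4. The ratio of FPKM was lowest there too and highest in library 3, while with the pseudocount of 1 the lowest ratio was that of library 2. Dag1 lay above Dmd by 3.19 ± 0.15, or 8.80- to 12.1-fold in FPKM. Dtna lay above Dmd by 1.04 ± 0.23. Per GENCODE exon length that ratio was 0.34 and was not positive in every library.

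The sarcoglycan genes were far from equal in transcript level, although their proteins are known to assemble in 1 complex. Sgcb lay below Sgca by -1.57 ± 0.24 (log2 ratio, SD, n = 5) and Sgcd below Sgca by -5.72 ± 0.20. Without the pseudocount, the FPKM of Sgcd was 0.0108 ± 0.00264 of that of Sgca, a log2 ratio of -6.56. Sgce, the epsilon-sarcoglycan gene known from many tissues, was at 4.78 ± 1.07 FPKM, above Sgcd, and Sgcz was listed at 0 in all 5 libraries. Sgcd lay below Sgcb by -4.15 ± 0.26, and Sgce below Sgca by -4.40 ± 0.19. Sspn lay below Sgca by -2.95 ± 0.31, with -3.49 in library 4 and -2.87 to -2.71 in the others.

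**Figure D2:**
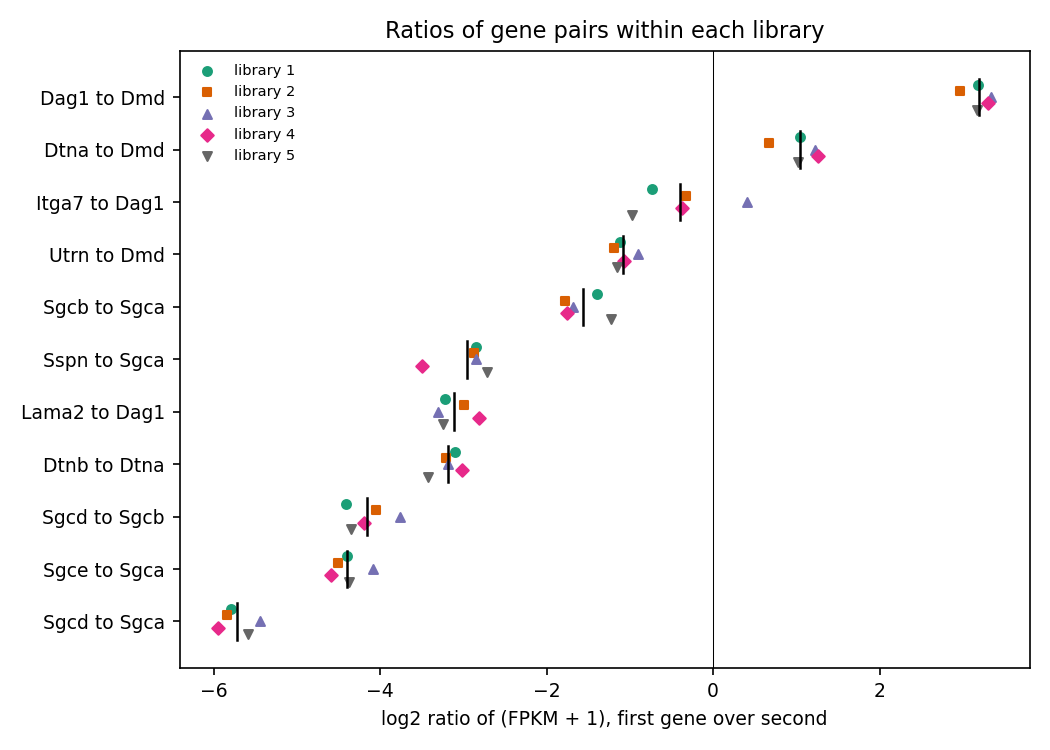
Log2 ratio of (FPKM + 1) of 11 gene pairs in each of the 5 libraries, first gene over second, with the mean as a bar. All 5 libraries fall on 1 side of 0 for each pair plotted except Itga7 to Dag1, which crosses it in library 3.

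In all, 13 such ratios were computed, of which 11 are reported. In 12 of them all 5 libraries had the same sign, and for each of these a two-sided exact permutation of the signs had p = 0.0625, or 0.0677 once adjusted over the 13 by Benjamini-Hochberg. That is the smallest p that 5 libraries allow, so no ratio could pass 0.05. Itga7, the integrin subunit of the other main laminin receptor of muscle, lay below Dag1 in 4 of 5 libraries (log2 ratio -0.40 ± 0.53, exact p = 0.25). It measured 83.0 FPKM in library 3 and 30.2 to 48.3 in the others, against 62.3 FPKM for Dag1 in library 3. Lama2, the laminin chain that dystroglycan binds in muscle basement membrane, lay below Dag1 by -3.12 ± 0.21.

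For all 8 genes the spread between libraries exceeded that of counting, by a chi-square test of reads against library totals with Benjamini-Hochberg adjustment over 10709 genes. The same held for 87.9% of those genes, so this is what most genes did. The CV of the 8 genes had a median of 14.3%, against 16.3% over all genes, and counting error gave 1.37% (Dag1) to 9.18% (Sgcd). The call was lost for Sgcd without library 3 and for Dag1 without library 4. When the spread was set against the trend with abundance in limma, 0 of the 8 genes and 0% of the 10710 genes tested passed, with 616 at an unadjusted p below 0.05. With 4 residual degrees of freedom a gene, this test could hardly have called even a large excess of spread, and the absence of calls says nothing of the 8 genes. On the deposited scale with all 5 libraries, the SD of a gene over its trend was 0.470 for Sgcb, the lowest, and 1.37 for Dmd, the highest of the 8. These places did not hold in every setting. With median-of-ratios size factors Dag1 was the lowest, at 0.529, and Sgcb was at 0.751. Without library 4 Dag1 was the lowest, at 0.106, and Sgcd the highest, at 1.25.

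Library 4 was the lowest for 5 of the 8 genes, namely Dmd, Utrn, Dag1, Dtna and Sspn, against 38% of all genes. On the log2(FPKM + 1) scale, Dmd deviated there from its own mean by -0.41, Sspn by -0.40, Utrn by -0.39, Dag1 by -0.30 and Dtna by -0.19. The median over all genes was -0.10. The pseudocount of 1 shrinks deviations most for genes of low FPKM, here Utrn and then Dmd, so these sizes do not rank the genes. Sgca went the other way, at 0.14 in library 4, where it was highest, as were 10.5% of all genes. Library 3 was the highest for 4 genes, namely Sgcd, Dag1, Dtna and Sspn, against 37.4% of all genes, and library 2 for Dmd and Utrn, against 23.2%. Library 1 was highest for Sgcb, against 21.2%, and library 5 for none, against 7.68%. None of the 8 was lowest in library 1 or library 3, against 10.2% and 17.1% of all genes. Library 2 was lowest for Sgcb, against 9.8%, and library 5 lowest for Sgca and Sgcd, against 24.9%. These counts depend on the scaling between libraries: median-of-ratios size factors raise the values of library 4 by 0.16 and those of library 5 by 0.10 on the log2 scale, after which 4 of the 8 genes were lowest in library 4 and 2 highest in library 3. Library 5 was then highest for 3 genes (Sgcb, Dag1 and Dtna), and library 1 lowest for Sgcd. With values rescaled to an equal sum over all genes, 5 were lowest in library 4 and Sgca was no longer highest there. The shares of all genes given above are those of the deposited scale. They cannot be set beside the counts under another scaling, for which no such share is given.

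**Figure D3:**
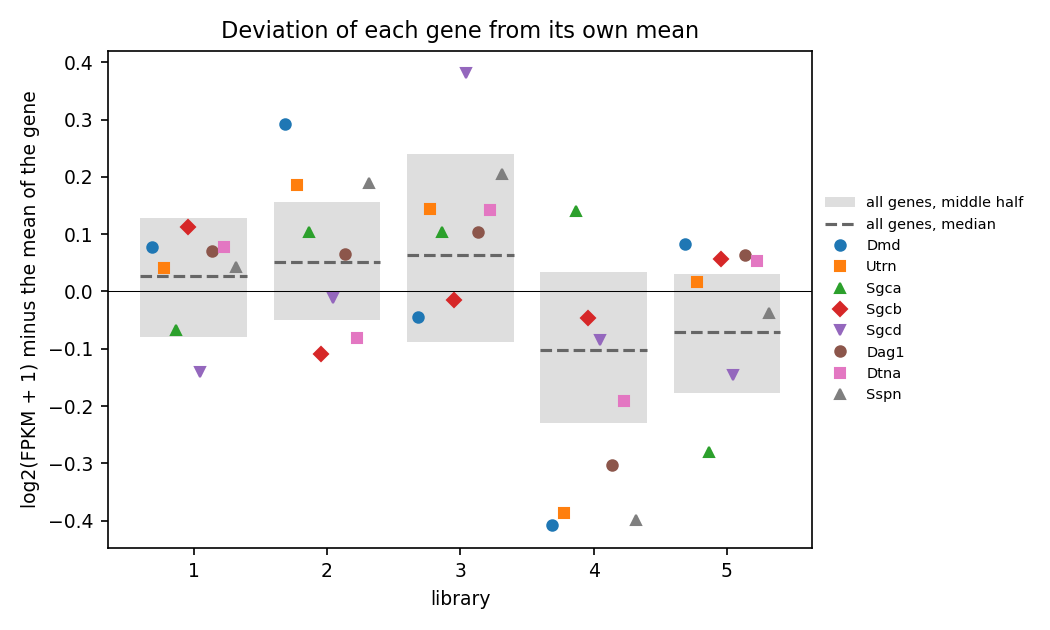
Deviation of log2(FPKM + 1) from the mean of the gene for the 8 genes in each library, over boxes that run between the 25th and 75th percentile of all genes averaging 1 FPKM or more, with their median dashed. In library 4, Dmd, Utrn, Sspn and Dag1 lie below the box and Sgca above it, and Sgcd lies above it in library 3.

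The low values in library 4 moved with gene length. Among genes of 4000 to 8000 bases, the length behind the FPKM, 61.5% were lowest in library 4, and 68.5% were among those of 8000 bases or more, against 10.1% of genes under 1000 bases. The median deviation in library 4 was 0.09 for genes under 1000 bases, -0.10 at 2000 to 4000 bases and -0.19 at 4000 to 8000 bases. The 5 genes lowest there had lengths of 4415 (Dag1), 4512 (Sspn), 6321 (Dtna), 12382 (Utrn) and 14910 bases (Dmd), whereas Sgca, with 1724 bases, was highest there. Sgcd, with 4453 bases, and Sgcb, with 3709, were not lowest in library 4. Set against the median of genes of like length, an alternative chosen after seeing the data, Dmd, Utrn, Dag1 and Sspn were still lowest in library 4, by -0.21, -0.19, -0.12 and -0.22, and Dtna was at 0.00293. The part of length in these values was not tested further.

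**Figure D4:**
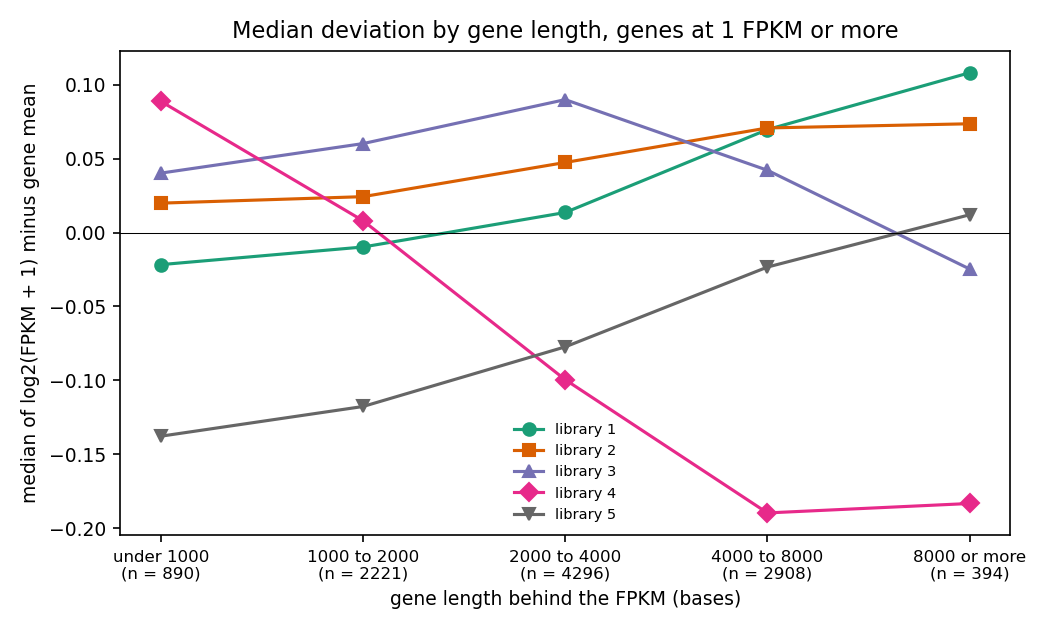
Median deviation of log2(FPKM + 1) from the gene mean, by class of gene length in bases, 1 line per library, for genes averaging 1 FPKM or more. Library 4 runs from 0.09 in genes under 1000 bases to -0.18 in genes of 8000 bases or more, and libraries 1, 2 and 5 run upwards.

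The markers of the tissue and of other cells were checked beside these results. All 7 markers of fast fibres and skeletal muscle identity were measured, with a summed level of 73332 to 104772 FPKM. Acta1, a marker of skeletal muscle identity, alone averaged 32368 FPKM. No liver marker averaged 1 FPKM, and the heart markers Nppa and Myl7 were listed at 0 in every library. The other heart marker, Myh6, averaged 20.4 ± 13.0 FPKM, with 43.6 in library 2, where the slow fibre list was also highest, and 13.5 to 15.8 in the others. Library 3 had the highest summed level for the macrophage list (356 FPKM against 91.6 to 121, 8 of 8 markers highest there), the regenerating fibre list (102 against 10.7 to 19.6, 5 of 5), the mural and smooth muscle list (227 against 138 to 183, 5 of 6), the adipocyte list (77.4 against 10.4 to 29.7, 4 of 4), the erythroid list (1028 against 328 to 500.4, 4 of 4 at 1 FPKM or more), the Schwann cell list (131 against 58.9 to 89.4, 3 of 5), the neuromuscular junction list (45.7 against 32.7 to 39.1, 2 of 4) and the satellite cell list (17.5 against 11.6 to 15.0, with 1 of 4 markers averaging 1 FPKM). That satellite cell marker was Cdh15, at 15.8 FPKM in library 3. Of the others, Myf5 was highest in library 3, Pax7 in library 1 (1.07 FPKM, against 0.481 in library 3) and Chrdl2 in library 5. Library 2 had the highest summed level for slow fibres (2849 against 898 to 1175, 5 of 5) and endothelium (115 against 89.4 to 93.7, 4 of 7). It also had the highest for fibro-adipogenic cells (397 against 285 to 338), with 2 of 5 markers highest there and 3 of 5 in library 3. The list of fast fibres and skeletal muscle identity was highest in library 4 (104772 FPKM, 5 of 7 markers) and lowest in library 2 (73332, 6 of 7). Sgcd, Dag1, Dtna and Sspn were highest in library 3, Dmd and Utrn in library 2 and Sgca in library 4, where 5 of the 8 genes were lowest. The part of these cells and fibres in those values was not tested.

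Pattern likeness was measured as the root mean square distance over the 5 libraries between deviations of log2(FPKM + 1) from each gene mean, where 0 is an identical pattern. Among the 28 pairs of the 8 genes, Utrn and Sspn were the closest on this scale, at 0.037. Utrn and Dag1 followed at 0.073, Dag1 and Dtna at 0.084 and Dag1 and Sspn at 0.096. The pseudocount of 1 shrinks the deviations of genes near 1 FPKM, such as Utrn and Sgcd. With a pseudocount of 0.1 the log2 SD of Utrn was 0.337 in place of 0.227, and that of Sspn 0.261 in place of 0.245. The distances of Utrn and Sgcd thus depend on the pseudocount, and no others are given here. Dmd was closest to Utrn, at 0.10, and farthest from Sgca, at 0.32. Sgca and Sgcb, partners in the sarcoglycan complex, were 0.22 apart. Among genes averaging 10 FPKM or more, the nearest to Dmd were Pptc7, Epas1 and Plekhb2 (0.038 to 0.052), to Utrn Prkacb, Sspn and Rnf115 (0.027 to 0.042) and to Sspn Pdxdc1, Rnf115 and Rnf44 (0.027 to 0.037). The nearest to Dag1 were Usp15, Clec16a and Ptpn11 (0.013 to 0.030) and to Dtna Exoc4, Arcn1 and Tcf25 (0.016 to 0.022). The nearest to Sgca were Polr2d, Creld1 and Eci2 (0.022 to 0.036), to Sgcb Atpaf2, Smim19 and Map2k1 (0.024 to 0.030) and to Sgcd Clptm1, Pigt and Ap2m1 (0.015 to 0.026). With 3802 or 3803 candidates and 5 libraries some genes come this close to any pattern, and the median distance over candidates was 0.19 (Sgcb) to 0.28 (Dmd).

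Of 13 other genes of the complex, 8 averaged 1 FPKM or more, and all 8 varied by more than counting error, as did 87.9% of all genes. Sntb1, a syntrophin gene, averaged 5.06 ± 0.733 FPKM (SD, n = 5). Cav3, the muscle caveolin, was at 45.5 ± 8.96 FPKM, and Nos1, the nitric oxide synthase that syntrophin anchors, at 3.17 ± 1.02. Sync, which encodes the dystrobrevin-binding intermediate filament protein syncoilin, measured 22.7 FPKM in library 3 and 9.93 to 12.4 in the others. Dtnb, the beta-dystrobrevin gene known mainly from other tissues, averaged 0.463 ± 0.154 FPKM and lay below Dtna by -3.19 ± 0.15 on the log2(FPKM + 1) scale. With Dtnb below 1 FPKM the pseudocount weighs on that ratio, which was -4.50 with a pseudocount of 0.1, -4.79 with none and -2.24 per GENCODE exon length. Drp2, a dystrophin-related gene of Schwann cells, measured 1.12, 2.09, 2.71, 1.36 and 1.63 FPKM, and both it and the Schwann cell list were highest in library 3 and lowest in library 1. Sntb2 averaged 0.723 FPKM, and the gamma-syntrophin genes Sntg1 and Sntg2 had 0 to 6 reads in each library.

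**Figure D5:**
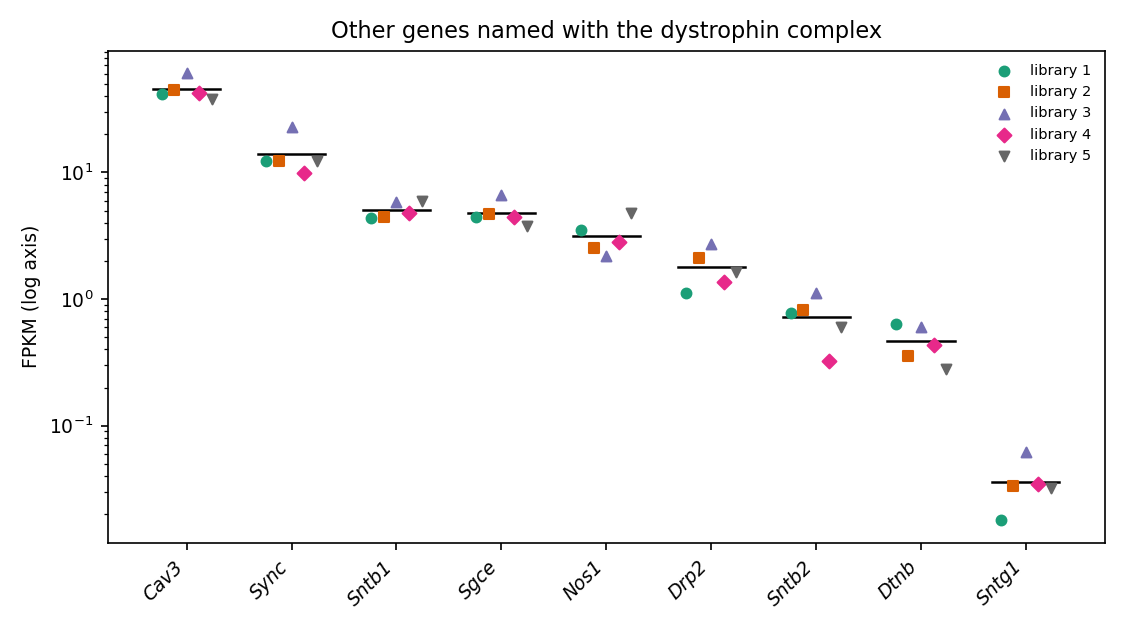
FPKM (log axis) of the named other genes of the complex that were above 0 in all 5 libraries, 1 symbol per library, with the mean as a bar. Among those plotted, Cav3 is the highest, at a mean of 45.5 FPKM, and Sntg1 the lowest, at 0.0358.

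Dystroglycan binds laminin only after a chain of enzymes has built a sugar on it, and 15 of 18 genes of that chain averaged 1 FPKM or more. Of these 15, 10 varied by more than counting error, against the 87.9% of all genes given above, and their median CV was 11.1%. Among them, B3galnt2 was at 20.0 ± 5.57 FPKM, Pomgnt1 at 16.1 ± 1.70, Dolk at 15.8 ± 1.39 and B4gat1 at 14.8 ± 1.87 (SD, n = 5). B3galnt2, which extends the sugar on dystroglycan, ranged most in absolute terms, from 13.0 FPKM in library 3 to 26.6 in library 1. Large2, a glycosyltransferase gene, had 1 to 9 reads a library. Pomt1 and Pomt2, which start the chain with mannose, were at 4.89 ± 0.543 and 1.88 ± 0.107 FPKM.

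All 10 matrix ligand genes averaged 1 FPKM or more and varied by more than counting error, and 8 were highest in library 3, against 87.9% and 37.4% of all genes. Lamb2 led the laminin chains at 63.1 ± 8.15 FPKM, followed by Lamc1 at 15.6 ± 3.46 and Lamb1 at 7.68 ± 0.966, with Lama2 at 5.81 ± 0.544. Hspg2, the perlecan gene, was at 18.4 ± 2.16 FPKM and Agrn, the agrin gene, at 3.10 ± 0.580. Bgn, which encodes the proteoglycan biglycan, measured 137 FPKM in library 3 and 29.5 to 61.9 in the others. Of 13 costamere and adhesion genes, 12 averaged 1 FPKM or more and all 12 varied by more than counting error, as did 87.9% of all genes, with 9 lowest in library 4 and 6 highest in library 3, against 38% and 37.4% of all genes. Des, the desmin gene, was the most abundant at 1808 ± 628 FPKM, Plec, which links filaments to the complex, was at 61.0 ± 7.01, Itgb1 at 60.7 ± 14.5, Dysf, the membrane repair gene, at 22.5 ± 4.76 and Ank3 at 8.60 ± 0.591.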

How the data were processed

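Gastrocnemius RNA of 5 samples in 1 group was sequenced, and the authors deposited 1 table of FPKM values per gene and library. Per the submitters' processing notes, the tools included edgeR and DESeq2, HTSeq 0.6.1, STAR 2.5 and TopHat, and the build was mm10; which tool made the table is not stated there. Not given in the sources used here were the gene annotation, the gene lengths, the strand setting and the counting mode. FPKM divides by length and library total, so a gene length that differs from the expressed isoforms moves a level without moving its CV between libraries.

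Reads were recovered from the steps of the deposited FPKM values: for 10709 of the 10710 genes averaging 1 FPKM or more, all 5 libraries gave whole reads within 0.001 read, 960 at the exon length in GENCODE M21 and 9749 at another length found from the steps. For 6 of the 8 genes (not Dtna and Sgcb) that length equals an annotated transcript. Gene identifiers matched GENCODE M21 for 34490 of 35275 rows. Recovered reads served the chi-square test of counting error, the mitochondrial share and the read counts given. The lengths found in the same step served the length classes, the scaling against genes of like length and the levels per GENCODE exon length. Without molecular identifiers, such errors and floors cover counting error only.

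Ratios were formed on log2(FPKM + 1) and tested by an exact two-sided sign-flip permutation over 32 sign patterns. The residual variance was set against its abundance trend with limma 3.58.1 in R 4.3.3 (one-sided), and the rest was computed in Python 3.11.15 with scipy 1.17.1. P-values were Benjamini-Hochberg adjusted over all genes tested, with a threshold of 0.05. Both tests were tested on simulated data.

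Genes named in the text are the 8 genes, the genes of the ratios, the fixed lists of related genes and markers, and the 3 genes of nearest pattern per gene, with exceptions stated. The 8 genes and these lists were chosen with earlier results of these data known. Alternatives were other scalings, pseudocounts and low-value filters and leaving out each library. Added after seeing the data were the exon length in GENCODE M21 and a scaling against genes of like length. Promoter windows came from RefSeq (GRCm38.p6) and matched 7 of the 8 genes. Some genes of the lists are counted in the totals and are not reported here by name.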

Additional observations from a re-analysis of the deposited data

Results flagged for a closer look

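Of 66 sets of 5 values examined (53 genes and 13 ratios), 8 held a library whose gap to its nearest neighbour was above Dixon's critical value for 5 samples, and chance gives about 1 in 20. Among the 8 genes of the complex, Sgcd measured 1.97 FPKM in library 3 and 1.06 to 1.26 in the others, and Dag1 measured 46.8 FPKM in library 4 and 60.6 to 62.3 in the others. With median-of-ratios size factors Dag1 was 52.2 in library 4 and 56.8 to 64.9 in the others. The log2 ratio of Sspn to Sgca was -3.49 in library 4 and -2.87 to -2.71 in the others.

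Library 3 stood above the others for Sync (22.7 FPKM, against 9.93 to 12.4), Gmppb (2.28 FPKM, against 1.62 to 1.81), Tln1 (24.3 FPKM, against 12.8 to 15.8) and Des (2869.7 FPKM, against 1297 to 1750.1). Library 4 stood below the others for Nid1 (14.2 FPKM, against 20.4 to 22.9). The macrophage, regenerating fibre and adipocyte markers were also highest in library 3, and long genes low in library 4, and their part in these values was not tested.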

How the results depend on the processing

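No paired analysis was possible because the samples form 1 group. Each of the 13 ratios kept its sign under every alternative. All 8 genes exceeded counting error under every alternative except without library 3 (7, Sgcd lost) and without library 4 (7, Dag1 lost). The spread-against-trend count was 0 to 4 genes when 1 library was left out, with 4 genes, none of the 8, without library 3. Under median-of-ratios scaling the genes highest numbered 0 in library 1, 2 in library 3 and 3 in library 5, and those lowest 1 in library 1, 2 in library 2 and 1 in library 5. Against genes of like length, those highest numbered 0 in library 1, 1 in library 2 and 2 in library 5, and those lowest 1 in library 1, 2 in library 2 and 1 in library 5. With an equal sum over all genes, 0 were highest in library 4. No share over all genes is given for these scalings, so these counts describe the 8 genes only. Levels moved beyond their SD only with the GENCODE M21 exon length, for 6 of the 8 genes (not Sgca and Sspn). Depth limits Sgcd the most, at 104 to 146 reads a library.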

Other observations

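Ilk, the integrin-linked kinase gene of the costamere list, was chosen for remark after its values were seen. It measured 0.0346 to 0.105 FPKM, from 2 to 4 reads a library, beside 60.7 FPKM for Itgb1 and 5.14 FPKM for its partner Parva. Of its 2744 exon bases, 89.7% also belong to Rrp8 and Taf10 on the opposite strand, which averaged 3.04 and 7.93 FPKM, and the part of this overlap in its low value was not tested.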
